A study of Mus musculus with 6 samples.

Results

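Long noncoding RNAs were followed in cells recovered by bronchoalveolar lavage, a wash of the airspaces of the lung, whose main cell is the alveolar macrophage. The 9 genes are 2 abundant nuclear RNAs (Neat1 and Malat1), 3 hosts of small nucleolar RNAs (Gas5, Snhg1 and Snhg12), 2 hosts of microRNAs (Mir155hg and Mir22hg) and 2 imprinted transcripts (Kcnq1ot1 and H19). They were found by matching the Ensembl gene identifiers of the deposited table, with the version ignored, to these symbols in GENCODE M21. All 9 matched 1 gene each, out of 48795 genes in the table, of which 9930 are long noncoding RNA genes in that annotation. The mice were wild-type C57BL/6 animals aged 8 to 12 weeks. The study instilled cadmium chloride at 100 ng/kg, or saline as its vehicle, into the trachea of male and female mice and collected the lavage after 7 days. Exposure and sex are not stated for any of the 6 libraries, which are titled CD178, CD177, CD176, CD174, CD171 and CD170 (titles, not surface antigens). No library was therefore assigned to a group, no comparison of cadmium with saline was made, and every value below is that of a single library or a median and range over the 6.

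Library sizes ran from 7732244 reads assigned to genes in CD174 to 23599369 in CD178. CD174 and CD171 stood apart: reads in no annotated feature took 25.0% of all counts in CD174 and 16.6% in CD171, against 6.49 to 7.29% in the other 4 libraries, and ambiguous reads took 9.99% in CD174. Genes that define alveolar macrophages were present in every library, at a summed level of 26323 CPM (reads scaled to a common library size) in CD171 to 32568 CPM in CD177, and none of the 10 was at 0. Lung epithelium genes summed to 218 CPM in CD177 and to 3209 CPM in CD174, and 9 of the 12 were highest in CD174. All 15 pairs of libraries differed by more than sampling noise, so none was treated as a repeat of another.

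Long noncoding RNAs are transcribed, capped and often spliced like messenger RNAs but are not translated into a protein that accounts for their role. Some stay in the nucleus and build or associate with nuclear bodies, some carry small RNAs in their introns or exons and are partly by-products of making them, and some silence neighbouring genes on 1 parental chromosome. In macrophages the best known example is the microRNA-155 host gene, which is switched on by inflammatory signals.

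Together the 9 genes made up 8.12% (CD174) to 10.6% (CD178) of the reads of all long noncoding RNA genes, when the rRNA-linked gene Gm26917 was set aside. Summed, they reached 633 CPM in CD178 and, at the least, 495 CPM in CD170. Of the 9, 8 had at least 10 counts in at least 3 libraries and were kept among 12627 filtered genes, and Mir155hg was not. A range is used below for spread: the highest minus the lowest log2 CPM over the libraries. It was at least 1 (a doubling) for Snhg1, Snhg12, Kcnq1ot1, Mir22hg and H19, or 5 of the 8, where 50.5% of all filtered genes reached that range. The median range was 1.15 over the 8 genes and 1.01 over all filtered genes. Among filtered long noncoding RNA genes as a class, 93.0% reached a range of 1, with a median of 3.29, and the abundant members lie well under that. Without CD171 and CD174, none of the 7 genes still past the filter reached a range of 1, where 16.9% of all genes did, and their median range was 0.55 against 0.45 over all genes. The count also hung on single libraries: 2 of 8 reached a range of 1 without CD171 alone (42.5% of all genes), 3 of 7 without CD174 (31.0%) and 3 of 7 without CD178 (46.4%).

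**Figure D1:**
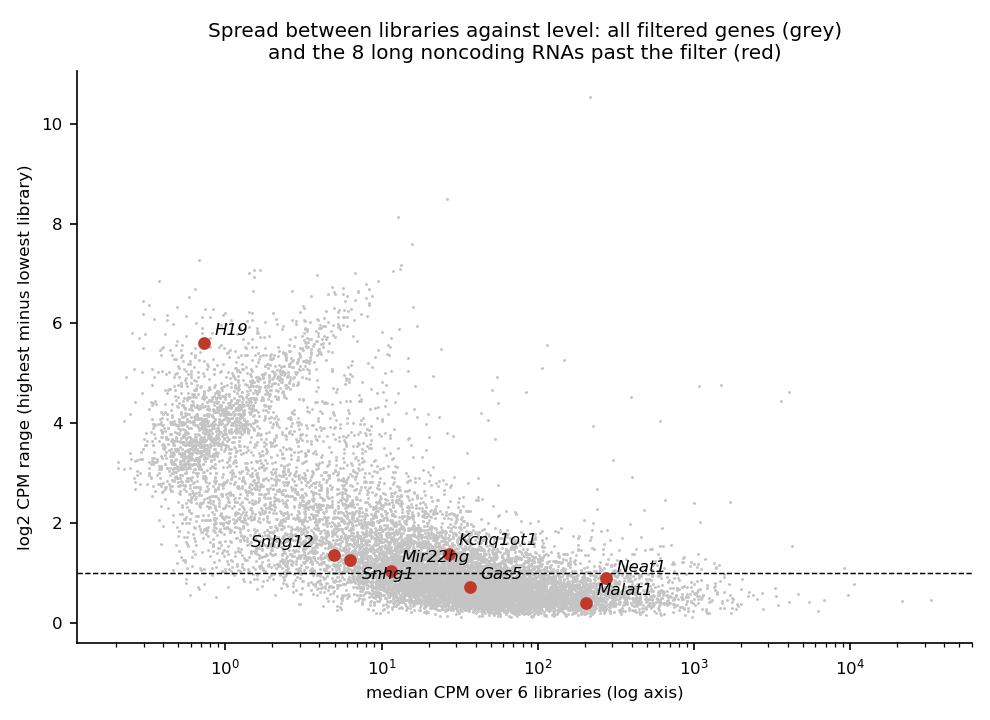
Each grey point is 1 of the 12627 filtered genes, with its median CPM over 6 libraries on the x axis (log scale) and its log2 CPM range on the y axis; red points are the 8 long noncoding RNAs past the filter, and the dashed line marks a range of 1. Malat1 (0.39), Gas5 (0.72) and Neat1 (0.89) lie under the line, Mir22hg lies just above it at 1.04, and H19 lies at 5.60 at the low end of expression.

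Levels can be compared between genes only per length. Reads per kilobase of annotated exon, scaled to the same total in each library (TPM), put Malat1 first with a median of 71.0 TPM (35.7 to 83.5). Neat1 followed at 33.3 TPM (10.4 to 49.5), Gas5 at 20.6 TPM (11.6 to 30.0) and Mir22hg at 16.5 TPM (5.10 to 21.8). The levels of Snhg12 at 5.23 TPM (2.80 to 6.22) and Snhg1 at 4.66 TPM (2.32 to 7.50) overlapped almost fully. H19 at 0.776 TPM (0.0594 to 3.92) had a far wider span, which held all of that of Kcnq1ot1 at 0.740 TPM (0.311 to 1.13). Mir155hg came last at 0.0628 TPM (0 to 0.906). Malat1 was above Neat1, Gas5 above Mir22hg, Mir22hg above Snhg12 and Snhg1 above Kcnq1ot1 in each of the 6 libraries. Neat1 was above Gas5 in 5 of 6, Snhg12 above Snhg1 in 4 of 6 and H19 above Kcnq1ot1 in 4 of 6, so the order of those 3 pairs is not fixed by these libraries. TPM is used here only for this order, since CD174 has the lowest value of several genes on that scale and not on the CPM scale. It is an order of reads obtained, as the RNA selection before sequencing is not given. Malat1 and the long form of Neat1 are not polyadenylated in the usual way, and the bearing of selection on their places was not tested.

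**Figure D2:**
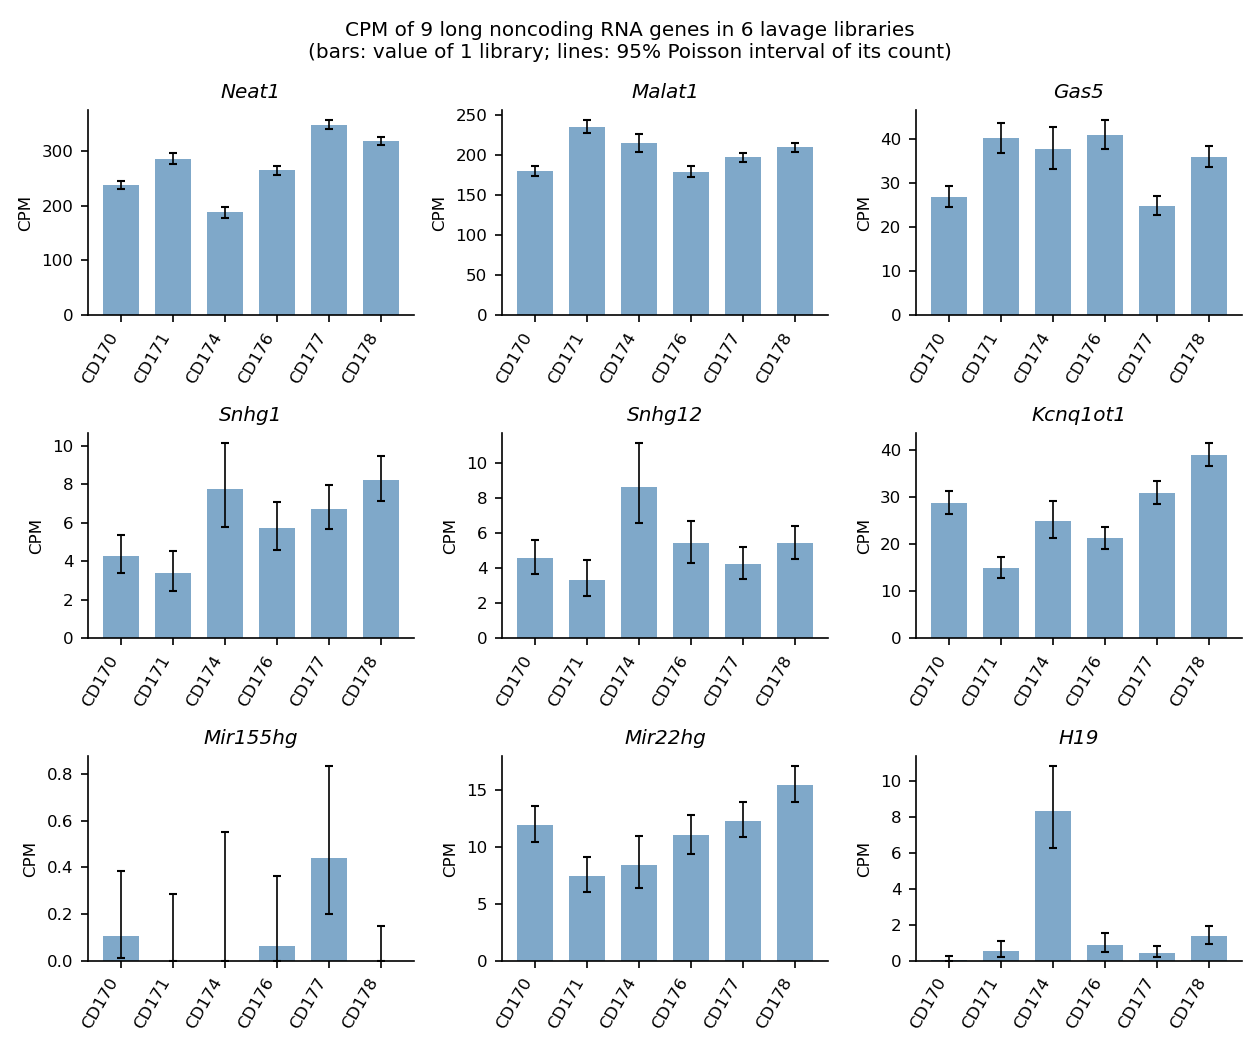
Bars give the CPM of each of the 9 genes in each of the 6 libraries, with a separate y axis starting at 0 for each gene, and lines give the exact 95% Poisson interval of the count. Neat1 and Malat1 lie between 179 and 348 CPM, Mir155hg is at or near 0 throughout, and H19 stands out in CD174 at 8.34 CPM.

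Neat1 is the RNA scaffold of paraspeckles, nuclear bodies that form around its long isoform. It lies at chr19:5824708-5845478 on the minus strand of GRCm38, as 1 unspliced block of 20771 bases. Its level was 238 CPM in CD170, 286 CPM in CD171, 188 CPM in CD174, 264 CPM in CD176, 348 CPM in CD177 and 317 CPM in CD178, from 1260 (CD174) to 7730 (CD178) counts. CD174 was lowest, with an upper bound of 198 CPM, CD177 was highest, with an interval of 340 to 356 CPM, and neither interval touched that of any other library. The range was 0.89 on the log2 scale and 0.55 without CD171 and CD174. By median CPM Neat1 ranked as number 4 among the long noncoding RNA genes of the table and by median TPM as number 22. An annotated transcript of 3004 bases is the second longest of its 4, and read against that length alone the same reads would give 230 TPM, above Malat1. Counts per gene do not separate the long form, which builds paraspeckles, from short ones.

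Malat1, an RNA retained in nuclear speckles, where splicing factors gather, lies next to Neat1 at chr19:5795690-5802672 on the same strand. Its level was 180 CPM in CD170, 236 CPM in CD171, 216 CPM in CD174, 179 CPM in CD176, 197 CPM in CD177 and 210 CPM in CD178. CD171 was highest and CD176 and CD170 were lowest, and the range of 0.39 was the smallest of the 8 genes, at percentile 8.30 of all filtered genes. In CD174 Malat1 was 0.13 above the median of the other libraries on the log2 scale, while Neat1 was 0.61 below it. With libraries scaled by total gene counts these values were −0.15 and −0.82, and the median gene was at −0.35 on that scale against −0.10 on the TMM scale.

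The 2 RNAs end in a like manner. Malat1 and the long form of Neat1 are not polyadenylated in the usual way, and their 3′ end folds into a triple helix from U-rich and A-rich elements. The elements are shown because they are the part of the sequence the neighbours share. A search for exact matches of at least 11 bases between the ends of the longest GENCODE M21 transcripts found 3, in the same order, which are in capitals below (DNA letters, 5′ to 3′ on the transcript strand).
Malat1 chr19:5795982-5796075 (minus): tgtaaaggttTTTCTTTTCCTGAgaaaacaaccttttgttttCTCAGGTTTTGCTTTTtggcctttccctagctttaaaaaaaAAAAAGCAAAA
Neat1 chr19:5824708-5824807 (minus): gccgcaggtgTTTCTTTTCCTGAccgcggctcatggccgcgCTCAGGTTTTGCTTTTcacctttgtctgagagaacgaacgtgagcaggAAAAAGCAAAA
The last element is the final base run of the annotated Neat1 transcript, while the annotated Malat1 transcript runs on for 292 bases after it. Of 55450 genes with transcripts in the annotation, only these 2 held all 3 elements in this order with at most 60 bases between neighbours, and AAAAAGCAAAA alone was in 376 genes (0.678%). As the elements were taken from these 2 transcripts, both hits were fixed in advance, and the search is no test of the feature.

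The ratio of Neat1 to Malat1 reads is free of library scaling. From low to high it was 0.870 in CD174, 1.21 in CD171, 1.32 in CD170, 1.47 in CD176, 1.51 in CD178 and 1.76 in CD177. CD174 was the only library with fewer Neat1 than Malat1 reads (95% interval 0.806 to 0.938), CD177 was highest (1.70 to 1.83), and the 2 ratios differed by 2.03-fold. It is a ratio of reads and not of levels per length, and a change in the mix of Neat1 isoforms would move it as well. The bearing of RNA selection on it was not tested.

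The mRNAs that encode proteins of the nuclear bodies are in the same table. Those of all 14 listed paraspeckle proteins were past the filter, with a median range of 0.62. Hnrnpk, Sfpq and Hnrnph1 had the highest median levels of that list, the first 2 at 470 and 290 CPM. Rbm14, which is needed to assemble the body, had a range of 0.98 and was highest in CD174 at 37.8 CPM. Of 13 mRNAs for nuclear speckle proteins, 4 had a range of at least 1, with a median of 0.70. Over all filtered genes the share was 50.5% and the median 1.01. Son, Srsf3 and Srsf1 were the most abundant, at 257, 233 and 206 CPM. The widest were Rbm25, highest in CD174 at 293 CPM, and Pnn, lowest in CD174 at 28.6 CPM.

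Gas5, Snhg1 and Snhg12 carry small nucleolar RNAs in their introns. The spliced exons are left over, and those of Gas5 are known to be translated poorly and removed by nonsense-mediated decay while cells grow. Gas5 (chr1:161034422-161038539, plus strand) had 26.8 CPM in CD170, 40.1 CPM in CD171, 37.7 CPM in CD174, 40.9 CPM in CD176, 24.8 CPM in CD177 and 35.9 CPM in CD178. CD170 and CD177 were low and the other 4 high, and no interval of the first pair (22.7 to 29.3 CPM) reached one of the other 4 (33.2 to 44.2 CPM). Its range was 0.72 over the 6 libraries and 0.71 without CD171 and CD174, so those 2 libraries did not set it. In CD177 Gas5 was lowest while Neat1 was highest.

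Snhg1 (chr19:8723475-8726443, plus strand) had 4.30 CPM in CD170, 3.40 CPM in CD171, 7.74 CPM in CD174, 5.75 CPM in CD176, 6.73 CPM in CD177 and 8.25 CPM in CD178, from 44 to 201 counts. CD171 and CD170 were low, CD178 was highest, and the interval of CD171 (2.47 to 4.56 CPM) lay under that of CD178 (7.15 to 9.47 CPM). Snhg12 (chr4:132308623-132311024, plus strand) had 4.56 CPM in CD170, 3.32 CPM in CD171, 8.64 CPM in CD174, 5.42 CPM in CD176, 4.25 CPM in CD177 and 5.42 CPM in CD178. CD171 was again lowest, and CD174 was highest with an interval of 6.56 to 11.2 CPM from 58 counts. The ranges were 1.25 for Snhg1 and 1.35 for Snhg12. Without CD171 and CD174 the range of Snhg12 was 0.34, while that of Snhg1 was 0.93. Snhg12 was at 0.68 without CD174 alone and Snhg1 at 0.92 without CD171 alone.

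The 3 hosts did not keep a common proportion. Snhg1 reads per Gas5 read ran from 0.0848 in CD171 (95% interval 0.0608 to 0.115) to 0.271 in CD177 (0.223 to 0.328), a 3.20-fold span that is 1.93-fold without CD171. Snhg12 reads per Snhg1 read ran from 0.630 in CD177 to 1.12 in CD174, with intervals of 0.476 to 0.830 and 0.754 to 1.65 that overlap. The entries for the small RNAs themselves were empty: the 10 annotated inside Gas5, the 8 inside Snhg1 and the 5 inside Snhg12 had 0 counts in every library. All lie on the host's strand within its annotated exons, merged over its transcripts. A read there matches the host as well and would be set aside as ambiguous, so the empty entries say nothing of small RNA levels. Exons of these hosts overlap other annotated exons over 17.8% (Gas5), 20.9% (Snhg1) and 19.6% (Snhg12) of their length, and reads there may be set aside as ambiguous. That share makes their levels less certain than that of Neat1, where it was 1.85%.

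Hosts of this kind typically start within a run of pyrimidines, the 5′ terminal oligopyrimidine (5′ TOP) feature of ribosomal protein mRNAs. The 100 bases around a RefSeq start of each of the 3 are shown because they are where the hosts look alike. TATA and the C or T run over base +1 are in capitals (GRCm38.p6, plus strand, 5′ to 3′, with 50 bases before base +1).
Gas5 chr1:161035116-161035215: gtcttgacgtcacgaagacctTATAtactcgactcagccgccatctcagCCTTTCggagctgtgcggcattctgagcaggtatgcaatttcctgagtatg
Snhg1 chr19:8723437-8723536: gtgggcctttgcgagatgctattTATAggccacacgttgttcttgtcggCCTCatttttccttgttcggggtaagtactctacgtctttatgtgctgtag
Snhg12 chr4:132308628-132308727: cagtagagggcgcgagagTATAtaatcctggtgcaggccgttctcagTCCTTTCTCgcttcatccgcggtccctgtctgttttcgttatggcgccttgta
The runs are 6 bases in Gas5, 4 in Snhg1 and 9 in Snhg12, counted with the bases before base +1. Their transcribed parts are shorter, and that of Snhg12 begins with T, so these lengths are not those of a 5′ TOP run. A run of at least 4 bases was present in 14.0% of 32851 RefSeq promoter windows, TATA at 20 to 40 bases before base +1 on the gene's strand in 5.34%, and both in 0.706%. RefSeq had windows for 7 of the 9 genes (8 windows, as Gas5 has 2 starts), and only these 3 windows held both features. The windows shown were picked for TATA, and the cut of 4 is the length of the Snhg1 run, so this is no test. The other Gas5 start has neither feature. A run of at least 6 was in 7.25% of all windows, and Snhg1 falls short of it. The metal response core, searched as TGCACNC and TGCGCNC on both strands, was in 25.7% of all windows and in 2 of the 8, the other Gas5 window and that of Mir155hg. CACGTG, an E-box, was in 7.15% of all windows and in none of the 8.

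Of 20 hosts of small RNAs listed, these 3 included, 17 are in the table and 13 passed the filter. Apart from Gas5, Snhg1 and Snhg12, 10 of 10 had a range of at least 1, with a median of 2.03, where the share was 93.0% and the median 3.29 over all filtered long noncoding RNA genes. Gas5, Snhg8 and Zfas1 had the highest median levels of the list, at 36.8, 16.6 and 10.6 CPM. Zfas1 reached 31.6 CPM in CD174 and 22.9 CPM in CD171, against 6.64 to 12.6 CPM in the other 4 libraries. The largest ranges were those of Snhg14 (3.97; 0 counts in CD171) and Snhg11 (3.17), both at low counts. Of messenger RNAs with a 5′ TOP start, 3 of 15 had a range of at least 1, where 50.5% of all filtered genes did. Their median range was 0.70, and Eef1a1 (median 6203 CPM), Eef2 (1864 CPM) and Tpt1 (1505 CPM) led in level. The widest of them were Rpl13a (1.58) and Rpl17 (1.47).

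Genes that act on these hosts mostly had ranges below 1, where 50.5% of all filtered genes reached 1 and the median range was 1.01. Nonsense-mediated decay factors had a range of at least 1 in 2 of 10 (Smg6, an endonuclease, at 1.14 and Upf3a at 1.07, both highest in CD171), and their summed level was 521 CPM in CD171 against 391 to 432 CPM elsewhere. Upf1, Smg1 and Smg5 led the list at 84.3, 75.8 and 59.5 CPM. None of the 7 mRNAs for proteins that form or assemble box C/D small nucleolar RNPs reached a range of 1, and the median was 0.73. Fibrillarin (Fbl), their methyltransferase, had 96.9 CPM in CD171 and 48.8 to 66.3 CPM in the others.

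Mir155hg and Mir22hg are the sources of microRNA-155, which represses inhibitors of inflammatory signalling in macrophages, and of microRNA-22. H19 carries microRNA-675 in its first exon. The mature microRNAs from RefSeq (GRCm38.p6) are given because the host counts say nothing of them; capitals mark the seed, bases 2 to 8, which pairs with targets.
miR-155-5p: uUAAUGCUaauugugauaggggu
miR-155-3p: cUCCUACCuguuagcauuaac
miR-22-5p: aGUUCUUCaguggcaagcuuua
miR-22-3p: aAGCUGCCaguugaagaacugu
miR-675-5p: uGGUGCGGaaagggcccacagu
miR-675-3p: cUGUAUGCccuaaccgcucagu
The 6 seeds are all different, so these hosts share no seed family. The 3 hairpin genes had 0 counts in every library, but they lie within host exons, where a read would be ambiguous. No level of a mature microRNA can be read from this table.

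Mir155hg (chr16:84703167-84715245, plus strand) was close to undetected. CD177 held 9 counts, CD170 held 2 and CD176 held 1, and the other 3 libraries held 0. In CD177 this was 0.439 CPM with an interval of 0.201 to 0.834 CPM. A count of 0 allows up to 3 counts, or 0.123 CPM in CD178, 0.232 CPM in CD171 and 0.447 CPM in CD174, and the interval of CD177 lies above the limit in CD178 but reaches those in CD171 and CD174.

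Genes known to accompany Mir155hg in activated macrophages were not all silent. Among NF-kB feedback and classical activation genes, 10 of 13 passed the filter. Of those 10, 5 had a range of at least 1, near the 50.5% of all filtered genes. Nfkb1, a subunit of NF-kB, had 140 to 187 CPM, and its inhibitor Nfkbia had 64.7 to 105 CPM. The cytokine gene Il1b was highest in CD176 at 105 CPM, where the other 5 libraries had 20.7 to 38.1 CPM, while Il6 had at most 5 counts and Nos2 at most 1. CD177, with the 9 Mir155hg counts, had 28.9 CPM of Il1b and 13.03 CPM of Tnf, neither the highest nor the lowest of the 6. Of 9 reported targets of microRNA-155, 3 had a range of at least 1, where 50.5% of all filtered genes did. They were Cebpb (1447 CPM in CD174 and 658 CPM in CD178, with CD177 lowest), Socs1 (0.849 to 3.28 CPM) and Maf (0 in CD174 to 2.47 CPM in CD171). The other 6, among them Spi1 at a median of 594 CPM and Inpp5d, which encodes the phosphatase SHIP1, at 175 CPM, did not.

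Mir22hg (chr11:75461539-75466676, plus strand) was readily detected, with 11.9 CPM in CD170, 7.49 CPM in CD171, 8.49 CPM in CD174, 11.04 CPM in CD176, 12.3 CPM in CD177 and 15.5 CPM in CD178, from 57 to 378 counts. CD171 and CD174 were low and CD178 high, and the interval of CD178 (14.0 to 17.2 CPM) lay just above that of CD177 (10.9 to 14.0 CPM). The range was 1.04, and it was 0.49 without CD171 and CD174, 0.86 without CD171 alone and 0.70 without CD178 alone. Of the other microRNA hosts, 5 of the 5 past the filter had a range of at least 1, with a median of 3.52, mostly at low counts; the 93.0% and 3.29 of filtered long noncoding RNA genes stand beside these. Mir142hg, host of the blood-cell microRNA-142, had 12.4 CPM in CD174 against 2.74 to 5.99 CPM elsewhere. Mir99ahg had 9.98 CPM in CD174 and at most 1.05 CPM elsewhere. Of 10 genes of microRNA processing and action, 3 had a range of at least 1 (Ago3 1.60, Drosha 1.07 and Ago4 1.03), where 50.5% of all filtered genes did. Ago2, Dicer1 and Tnrc6a led that list in level at medians of 63.3, 51.5 and 48.6 CPM.

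Kcnq1ot1 is transcribed from the paternal chromosome, antisense to the potassium channel gene Kcnq1, and silences genes around it in development. It spans chr7:143203458-143296549 on the minus strand as 1 unspliced annotated transcript of 93092 bases. Its level was 28.8 CPM in CD170, 14.9 CPM in CD171, 25.0 CPM in CD174, 21.2 CPM in CD176, 30.9 CPM in CD177 and 39.0 CPM in CD178. CD171 was lowest with an interval of 12.9 to 17.2 CPM, CD178 was highest with 36.5 to 41.5 CPM, and neither overlapped any other library. The range was 1.38 and was 0.88 without CD171 and CD174, and 0.87 without CD171 alone. No library held over 2 counts of Kcnq1 itself, a count over its exons, and unspliced sense reads within the Kcnq1ot1 block cannot be told apart from it without strand.

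Per Malat1 read, Kcnq1ot1 ran from 0.0632 in CD171 (0.0544 to 0.0731) to 0.185 in CD178 (0.173 to 0.199), a 2.93-fold span that does not rest on library scaling but does rest on CD171: without it the span is 1.60-fold, from 0.116 to 0.185. The genes of its imprinted domain gave 8 of 11 past the filter. Of those 8, 6 had a range of at least 1, Kcnq1ot1 included, where 50.5% of all filtered genes did. Cd81, Nap1l4 and Tspan32 were the most abundant at medians of 144, 115 and 50.9 CPM. Cdkn1c, a growth inhibitor that Kcnq1ot1 silences on the paternal chromosome, had 9.68 CPM in CD174, from 65 counts, and at most 0.540 CPM in the other libraries. Tssc4 had 61.8 CPM in CD174 and 35.4 CPM in CD171, against 16.1 to 20.3 CPM elsewhere.

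H19 is made from the maternal chromosome, is abundant in fetal tissue and is largely shut off after birth. It lies at chr7:142575529-142578143 on the minus strand. Its level was 0.0531 CPM in CD170, 0.540 CPM in CD171, 8.34 CPM in CD174, 0.915 CPM in CD176, 0.439 CPM in CD177 and 1.40 CPM in CD178, from 1, 7, 56, 14, 9 and 34 counts. CD174 was far above the rest, with an interval of 6.30 to 10.8 CPM against 0.967 to 1.95 CPM in CD178, the next highest. H19 had the largest range of the 8, 5.60 on the log2 scale, at percentile 98.7 of all filtered genes; this value depends on the prior count, since the lowest library holds 1 count. It passed the filter with just 3 libraries at 10 or more counts, and no longer passed without CD174, CD176 or CD178.

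Among genes with a median of at least 10 CPM, those nearest in pattern to H19 were markers of lung epithelium. Likeness was measured as the root mean square difference of log2 CPM, each gene centred on its own median over the 6 libraries, among 8288 genes with a median of at least 10 CPM. The nearest were Sftpc (0.434), a surfactant protein of alveolar type 2 cells, Sftpb (0.547), another surfactant protein, and Scgb1a1 (0.638), the secretoglobin of club cells, where the median gene lay at 1.75. For each of the other genes, described below, the 3 nearest lay at 0.145 or less. H19 itself had a median of 0.727 CPM, so genes at its own low level were not among the candidates. No relation is read from these names. Sftpc had 41.4 CPM in CD170, 97.1 CPM in CD171, 1602 CPM in CD174, 199 CPM in CD176, 51.1 CPM in CD177 and 254 CPM in CD178. The 4 genes shared their highest library, CD174, and their second highest, CD178. All 12 epithelium markers passed the filter and none was at 0 in any library. Their sum was 3209 CPM in CD174 against 218 to 629 CPM in the other 5 libraries. Cdh1, on that list, was nearly flat, at a median of 82.1 CPM with a range of 0.27. It fills part of the lower sums, which are thus not a measure of epithelial RNA alone. The part of epithelial RNA in the H19 reads was not tested. In these bulk libraries, more cells of a type and more RNA per cell cannot be told apart.

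**Figure D3:**
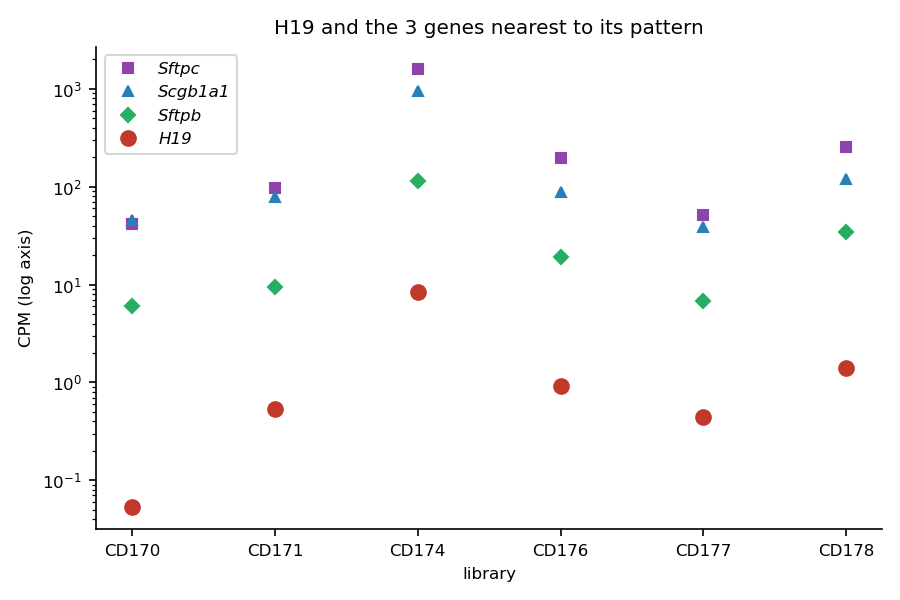
Points give the CPM (log axis) of H19 and of the 3 genes nearest to its pattern, Sftpc, Scgb1a1 and Sftpb, in each of the 6 libraries. Only genes with a median of at least 10 CPM were searched. All 4 are highest in CD174, where H19 has 8.34 CPM and Sftpc 1602 CPM.

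Some other imprinted genes were also highest in CD174. Of 14 genes listed for the H19 domain and its network, 7 passed the filter and 6 of those had a range of at least 1. Their median was 5.41, where 50.5% of all filtered genes reached 1 and the median was 1.01. Igf2, the growth factor gene that shares an enhancer region with H19, had 10.6 CPM in CD174 and 5.33 CPM in CD171, against 0.131 to 0.683 CPM elsewhere. Peg3 had 7.45 CPM in CD174, 1.85 CPM in CD171, 1.44 CPM in CD176 and at most 0.452 CPM in the others. Peg13, the most abundant gene of the list, was lowest in CD174 at 28.4 CPM and highest in CD171 at 56.4 CPM. Gnas likewise was lowest in CD174 (6.11 CPM) and highest in CD171 (21.5 CPM), and Igf2r had 1.70 to 3.72 CPM.

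Set beside each other, the 8 genes did not move as 1 group. Kcnq1ot1 and Mir22hg were the closest pair, with a root mean square difference of 0.210, and Mir22hg per Kcnq1ot1 read stayed between 0.339 and 0.520. Malat1 and Gas5 followed at 0.281 and Neat1 and Malat1 at 0.321, and the 7 pairs with H19 were all at 1.41 or more. CD171 was the lowest library for 4 of the 8 (Snhg1, Snhg12, Kcnq1ot1 and Mir22hg) and the highest for Malat1. CD178 was the highest for Snhg1, Kcnq1ot1 and Mir22hg. CD174 was the highest for Snhg12 and H19 and the lowest for Neat1.

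**Figure D4:**
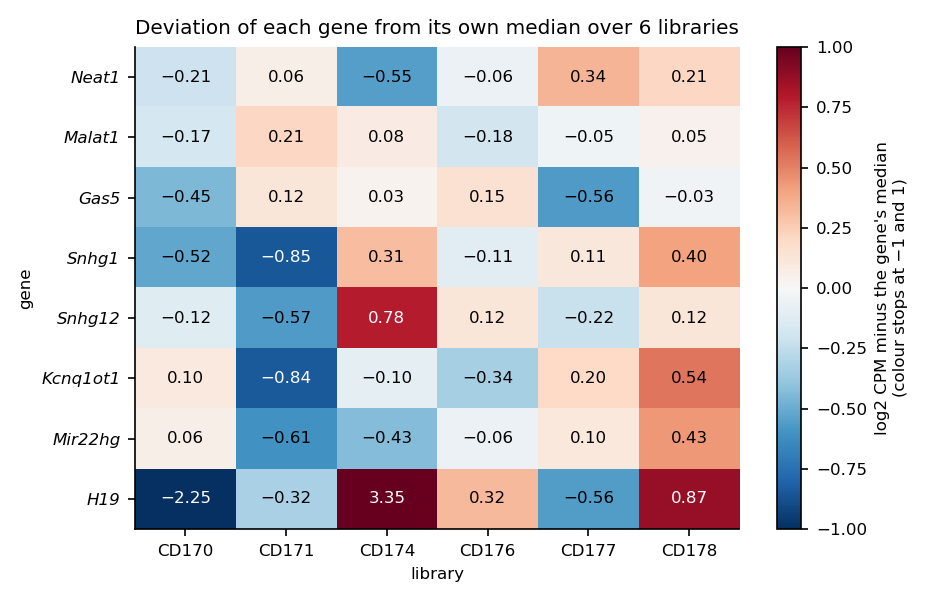
Rows are the 8 genes past the filter and columns the 6 libraries; each cell gives the log2 CPM minus the median of that gene, with red above and blue below it and colour limited to −1 and 1. In CD171, Snhg1 (−0.85), Kcnq1ot1 (−0.84), Mir22hg (−0.61) and Snhg12 (−0.57) are low together, while H19 is at 3.35 in CD174.

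**Figure D5:**
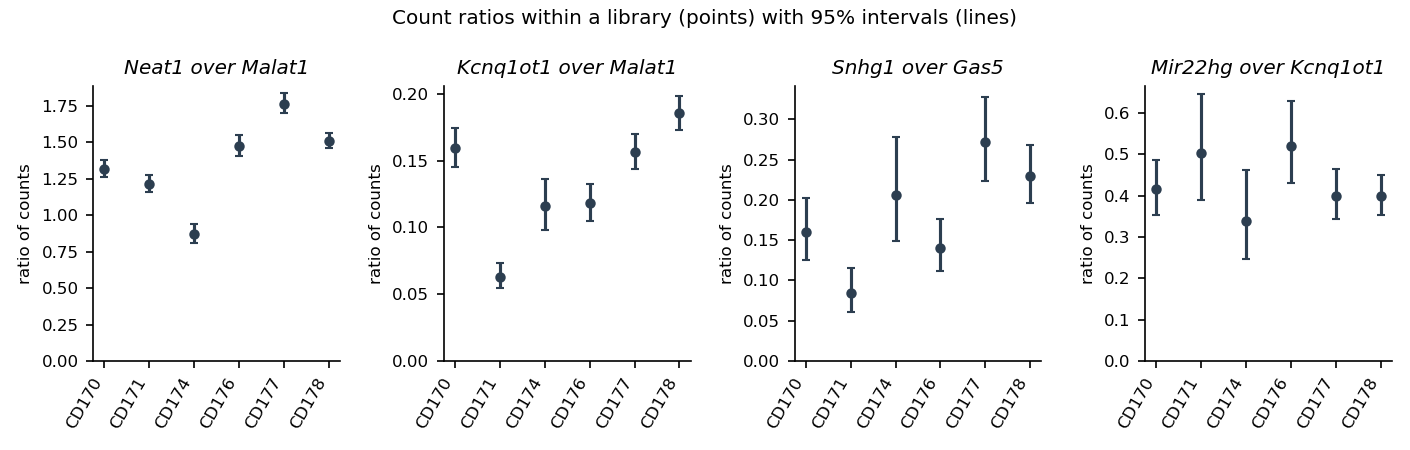
Points give the ratio of counts of 2 genes within a library and lines its 95% interval, for Neat1 over Malat1, Kcnq1ot1 over Malat1, Snhg1 over Gas5 and Mir22hg over Kcnq1ot1, on y axes that start at 0. Neat1 over Malat1 is lowest in CD174 (0.870), Kcnq1ot1 over Malat1 and Snhg1 over Gas5 are lowest in CD171 (0.0632 and 0.0848), and Mir22hg over Kcnq1ot1 stays between 0.339 and 0.520.

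Each of the other genes had near neighbours in pattern among protein-coding genes, by the same measure. Neat1 came nearest to Zfp292 (0.0538), Hjurp (0.0677), a chaperone of the centromeric histone, and Kmt2e (0.0774), where the median gene was at 0.375. Malat1 came nearest to Abhd3 (0.0416), Mgat1 (0.0435), an enzyme of N-glycan synthesis, and Timmdc1 (0.0501), a respiratory complex I assembly factor. For Gas5 they were Trmu (0.0361), which modifies mitochondrial tRNA, Rnaset2a (0.0807) and Ints11 (0.1103), the endonuclease of Integrator. Snhg1 had Serpinb9 (0.0654), Uqcc2 (0.126) and Gpr34 (0.126). The nearest to Snhg12 were Yaf2 (0.0608), Slc2a1 (0.0643), the glucose transporter, and Fam162a (0.0705). Kcnq1ot1 had Nutf2 (0.1198), Gtf3c2 (0.139) and Cped1 (0.145), and Mir22hg had Emd (0.0861), which encodes emerin, Nav2 (0.0911) and Hsd17b12 (0.0919). With 6 libraries and 8287 or 8288 candidates some near profile is found for most genes, and no relation is read from these names.

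Some neighbouring genes on the chromosome differed in pattern from the long noncoding RNA beside them, and others did not. Likeness between neighbours was not measured. Slc3a2, whose start lies 106 bases from that of Snhg1, stayed between 168 and 212 CPM with a range of 0.34, against 1.25 for Snhg1. Zbtb37, which overlaps Gas5, had 0.298 CPM in CD174 and 7.32 to 13.4 CPM in the others, and was highest in CD177, where Gas5 was lowest. Tlcd2, which overlaps Mir22hg, had 0 counts in CD174 and 8.03 CPM in CD171, the library with the least Mir22hg, and 1.86 to 3.78 CPM elsewhere. Frmd8, a protein-coding gene near Neat1 and Malat1, had a range of 0.64. Trnau1ap, near Snhg12, had 39.4 to 54.9 CPM, and Mrpl23, near H19, had 8.98 to 15.9 CPM with no rise in CD174 (9.83 CPM). Igf2, the nearest protein-coding gene on the other side of H19, was highest in CD174 (10.6 CPM), as H19 was.

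Stress and metal response genes give the setting of the libraries. Of 14 immediate early genes, 12 had a range of at least 1, where 50.5% of all filtered genes did. Their sum was highest in CD176 at 2503 CPM and lowest in CD171 at 1385 CPM. The metallothionein gene Mt1, which binds cadmium and zinc, had 1266 CPM in CD174 and 323 to 457 CPM in the other 5 libraries, and Hmox1, the haem oxygenase of the oxidative stress response, had 570 CPM in CD174 and 156 to 269 CPM in the others. Of 5 genes of the metal response list, 3 had a range of at least 1, beside the same 50.5% of all filtered genes. None of the labels links these values to an exposure. Among the long noncoding RNAs described here, Snhg12 and H19 were also highest in CD174, and Neat1 was lowest there; the part of the epithelial and unannotated reads of that library in these values was not tested.

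Markers of other blood and tissue cells were low beside those of macrophages. T, NK and B cell genes summed to 1.80 to 3.86 CPM, dendritic cell genes to 4.32 to 8.34 CPM, neutrophil genes to 61.6 to 102 CPM, and endothelium and mesenchyme genes to 40.4 to 91.5 CPM. Monocyte genes summed to 1276 CPM in CD178 and to only 495 CPM in CD171, but this sum is mainly Fn1 and does not stand for the list. Of the 6 genes listed, 3 had at most 10 counts in any library and 3 were highest in CD174. Like that sum, Kcnq1ot1, Mir22hg and Snhg1 were highest in CD178 and lowest in CD171, and the part of monocytes in those values was not tested. Red cell genes were most abundant in CD170 (2882 CPM) and least in CD177 (112 CPM). Several other long noncoding RNAs and small RNA genes gave no reads at all, including Dancr, Miat, Rmrp and Rn7sk, and replication-dependent histone genes, whose mRNAs lack a poly(A) tail, had at most 10 counts in any library for 9 of 12. Xist, the RNA that coats the inactive X chromosome in female cells, had 4 counts in CD170 and 1 in CD171, against 1310 to 6358 counts in the other 4 libraries, a log2 range of 10.5; no library was grouped by it. Tug1 had 34.1 to 67.8 CPM and Dleu2 30.9 to 49.9 CPM.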

How the data were processed

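The authors deposited unnormalized counts, 1 whole number per gene and library. The submitters' processing notes name HTSeq 0.11.2, STAR 2.7.1a, Trim Galore 0.6.2, bcl2fastq 2.18.0.12 and build GRCm38. Which annotation release, strand setting and RNA selection were used is not given in the sources at hand, so where genes overlap or run antisense their reads cannot be told apart. The 5 entries that name no gene, 18.8% (CD177) to 46.0% (CD174) of all counts, were kept out of library sizes.

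From these counts, edgeR 4.0.16 (R 4.3.3) gave TMM (trimmed mean of M-values) factors, from which CPM was computed, and its log2 with 2 as the prior count. The filter asked for 10 or more counts in 3 or more libraries. TPM used merged exon lengths of GENCODE M21. Intervals are 95%: exact Poisson for counts, exact binomial (Clopper-Pearson) for ratios; these, and the limit of 3 counts, cover only the error of counting, as reads lacking molecular identifiers are not independent molecules. DESeq2 1.42.0 size factors were an alternative. Other steps used matplotlib 3.10.9, scipy 1.17.1, pandas 2.3.3 and numpy 2.4.6 under Python 3.11.15, and range estimates were tested on simulated data. No library had a group, so no test of differential expression was run.

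The genes and the 25 gene lists were chosen with earlier results of these data known. Genes were named by rule: the 9 genes, the 3 nearest in pattern to each, the 3 highest by median CPM and the 2 with the largest range in each list, and overlapping or nearest genes. Others named were chosen after their values were seen, and a few genes that the rule names are not reported here.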

Additional observations from a re-analysis of the deposited data

Results flagged for a closer look

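Over 43 quantities (levels of the genes, count ratios and list sums), 7 had 1 library whose gap to the next exceeded 0.625 of the whole range over 6 libraries, the 95% critical value of Dixon's test; chance gives about 1 in 20, and quantities that share genes or libraries are not independent. For H19 it was CD174, at 8.34 CPM. For Mir155hg it was CD177, at 0.439 CPM from 9 counts. Sums of lists stood out in CD174 for lung epithelium markers (3209 CPM) and for metallothionein and metal response genes (1901 CPM). Dendritic cell markers (4.318 CPM, the lowest) and a list drawn up as other long noncoding RNAs (101500 CPM) also stood out there. Of the latter sum, Lars2 gave 43705 and CT010467.1 gave 56802 CPM. Neither is among the long noncoding RNA genes of the annotation. That whole class took 0.592% of gene counts in CD174, and Lars2 is protein-coding. The nonsense-mediated decay factors stood out in CD171, at 521.1 CPM. Of the 7, 5 were in CD174, the library with the fewest reads and the most reads in no annotated feature.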

How the results depend on the processing

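No paired analysis was possible because groups are not stated for the libraries. A range of at least 1 was found for 5 of 8 genes with DESeq2 size factors and with a prior count of 0.5, and 6 with total gene counts and with no filter on low counts (then of 9); the share of all genes was 50.4 to 62.6% under these 4. Leaving out 1 library at a time gave 2 (without CD171) to 5 genes, with 3 without CD174 or CD178, and 31.0% (without CD174) to 47.4% of all genes. Leaving out CD171 and CD174 together gave 0 genes and 16.9%. The order by level per length had 4 of 9 places changed without those 2 libraries (Snhg1 with Snhg12, and Kcnq1ot1 with H19), 0 with the longest transcript as length, and 2 (Neat1 before Malat1) with the 3004-base Neat1 transcript, a setting chosen after seeing the data. The causes were not tested. Both the lowest and the highest library were kept for 7 of 8 genes with DESeq2 size factors, 6 with total gene counts and 8 without the filter or with the smaller prior. The range of H19 was 6.65 with a prior count of 0.5 and 3.91 without CD170. Over the 9 count ratios, the fold between the highest and the lowest library moved by over 1.5 times for 4, each without CD171: Kcnq1ot1 over Malat1 (1.60-fold), Snhg1 over Gas5 (1.93-fold), Snhg12 over Gas5 (1.73-fold) and Kcnq1ot1 over Neat1 (1.66-fold), settings also chosen after seeing the data. Depth limits Mir155hg, H19, Snhg1, Snhg12 and Mir22hg, whose counts are below 100 in at least 2 libraries.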
